A study of Mus musculus with 4 samples.

Results

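Accessible chromatin was examined at 7 genes whose products drive the epithelial-mesenchymal transition (EMT): Snai1, Snai2, Zeb1, Zeb2, Twist1, Twist2 and Hmga2. They were chosen by name, as the SNAIL, ZEB and TWIST factors together with the chromatin protein HMGA2, out of 22350 protein-coding genes annotated on chromosomes 1 to 19 and X, and all 7 were matched. The data came from ATAC-seq, in which the Tn5 transposase cuts DNA that nucleosomes leave free, in NMuMG cells, an established epithelial line from normal mouse mammary gland. The study had 4 samples, 1 per group. A first pair stayed in complete medium, with serum and insulin, and was given vehicle or TGFβ1 (5 ng/ml) over 2 h. A second pair was starved of serum and insulin over 6 h before vehicle or TGFβ1 (5 ng/ml) was added, with collection at 10 min. The labels describe the vehicle as albumin with HCl and conflict on whether Tris was in it. They also give 2 h in 1 field of the 10 min TGFβ sample, whose title was followed.

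Epithelial cells in EMT give up their junctions and polarity and become motile. EMT-like changes also accompany the branching of the normal mammary gland. SNAI1 and SNAI2 are zinc-finger repressors, and ZEB1 and ZEB2 carry zinc-finger clusters around a homeodomain. Both families bind E-box sequences in epithelial genes such as Cdh1, which encodes E-cadherin. TWIST1 and TWIST2 are basic helix-loop-helix factors that bind E-boxes as dimers. HMGA2 binds AT-rich DNA through AT-hooks, bends DNA and is a known target of TGFβ signalling. TGFβ binds receptor kinases at the cell surface, which phosphorylate SMAD2 and SMAD3, and these enter the nucleus with SMAD4.

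The measurements were 3 lists of peaks, each peak with a position and a score. Intervals narrower than 150 bp were dropped, and intervals with a gap under 1000 bp were joined into 1 region. This left 19648 regions in the vehicle list and 38532 in the TGFβ list of complete medium, and 26732 in the list of the 10 min experiment. The labels of both 10 min samples name that last list, although its own name carries TGFβ and 10 min. No separate vehicle list of that experiment was at hand, so no comparison of vehicle with TGFβ was made at 10 min. The list differs from the vehicle list of complete medium in medium, time and possibly treatment. The score is a rescaled irreproducible discovery rate (IDR), a measure of agreement between replicate peak ranks, from 540 at an IDR of 0.0501 to a cap of 1000, and it ranks regions within 1 list only. With 1 sample per group, which peak rankings were compared for these lists could not be settled. With 1 list per condition and no read counts in the lists, no difference between lists could be tested. The study states a read depth for every library, not used as data here, and in complete medium the TGFβ library, which gave the longer list, was the shallower one. A region absent from a list fell short of that list's threshold, which is not the same as closed chromatin, and in bulk cells a smaller share of open cells and less cutting per cell cannot be told apart. As a check of the labelled cell type, 4 of 10 mammary epithelial markers had a region at a start in the vehicle list, 5 in that of TGFβ and 5 in that of 10 min, and Krt8, Krt18, Krt19 and Grhl2 had one in each. Over all protein-coding genes the shares were 41.0%, 47.6% and 46.3%, so these counts lie near the background and do not establish the cell type. The defining epithelial genes Epcam, Cldn3, Cldn7 and Esrp1 had none in any list. Of other cell types, 1 of 6 fibroblast markers (Col1a1) had one in every list, none of 4 matched blood and 4 endothelial markers had one in the vehicle or 10 min list, and Cd68 and Kdr had one in the TGFβ list.

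Within 1000 bp of an annotated transcription start site (TSS), 4 of the 7 genes had an accessible region in the vehicle list: Snai1, Snai2, Zeb2 and Hmga2. The TGFβ list and the 10 min list each had one at 6 genes, the same 4 with Zeb1 and Twist2. Twist1 had none in any list. Over all protein-coding genes, 41.0% had a region at a TSS in the vehicle list, 47.6% in that of TGFβ and 46.3% in that of 10 min. Of the 3 genes without one in the vehicle list, 2 had one in that of TGFβ and the same 2 in that of 10 min, where 12.3% and 10.2% of the 13187 genes lacking one in the vehicle list did. The combination seen at Zeb1 and Twist2, absent from the vehicle list and present in both others, was that of 1040 protein-coding genes (4.65%), and the presence in all lists seen at Snai1, Snai2, Zeb2 and Hmga2 was that of 8916 (39.9%), with these genes counted in.

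**Figure D1:**
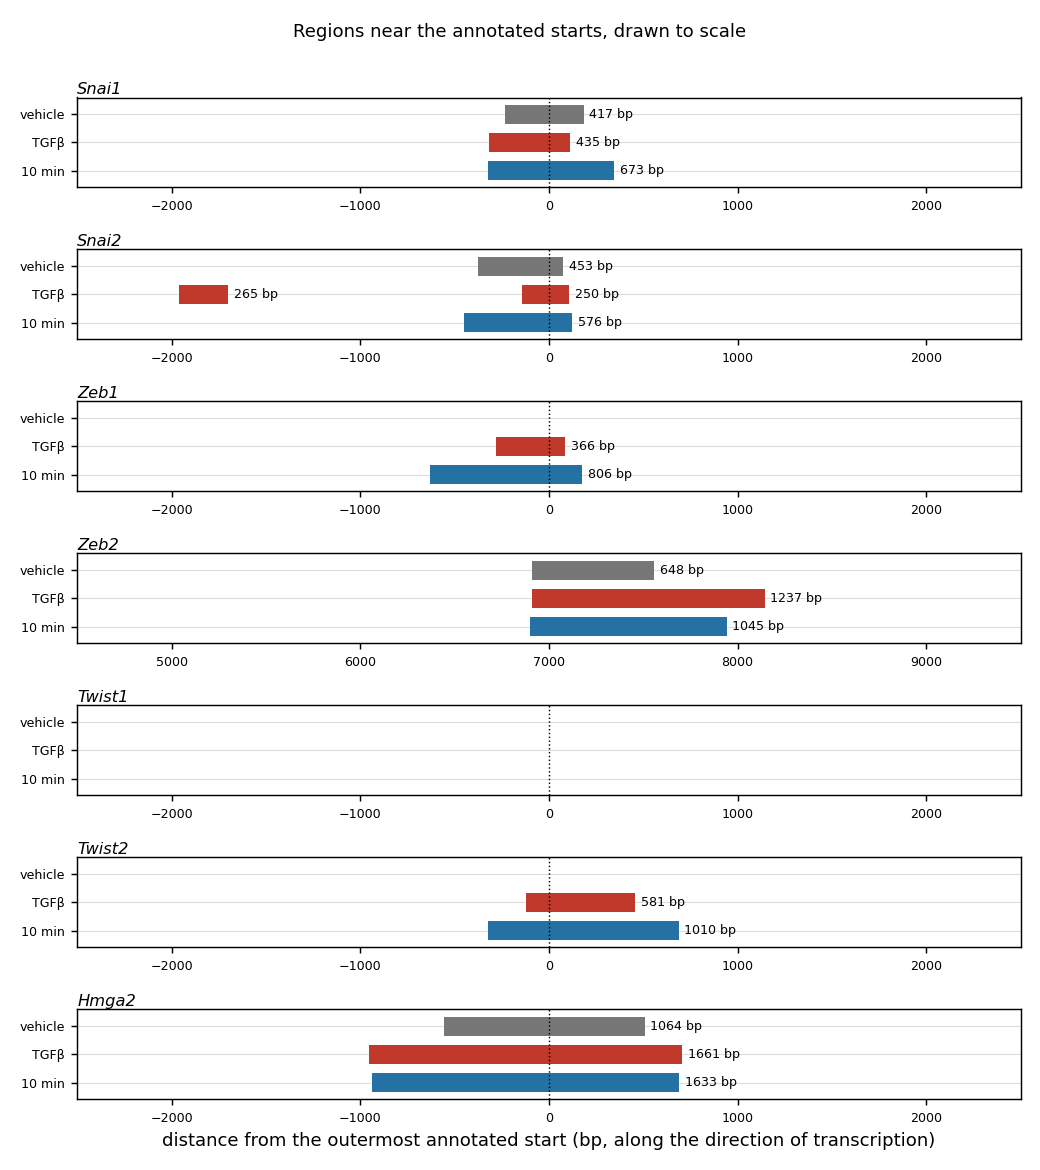
Regions of each list near the start of each of the 7 genes, drawn to scale against the distance in bp from the outermost annotated start along the direction of transcription (dotted line), with the width printed beside each bar. Zeb1 and Twist2 have a bar in the TGFβ and 10 min rows and none in the vehicle row, Twist1 has none at all, and the axis of Zeb2 is moved to its inner starts, about 6.9 kb into the gene.

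The starts of these genes share a base composition that the choice of genes did not use. In the 1000 bp centred on the outermost start, the ratio of observed to expected CpG ran from 0.695 (Hmga2) to 0.946 (Zeb1) over the 7 genes, with a median of 0.788 against 0.549 over all protein-coding genes. All 7 were at or above 0.6, the level used here for a CpG-rich start. Of the 10202 protein-coding genes with a CpG-rich start, 70.7% had a region at a TSS in the vehicle list, 78.3% in that of TGFβ and 77.5% in that of 10 min. Counts of 4, 6 and 6 in 7 lie near those shares, and Twist1 fell among the 19.7% with no region at a TSS in any list. Of the 12148 genes with CpG-poor starts, between 16.0% (vehicle) and 21.9% (TGFβ) had one. The 12.3% and 10.2% given above for genes lacking a vehicle region, and the shares of that kind given below, cover starts of every composition. The matching share among CpG-rich genes alone was not computed, so those contrasts are not adjusted for composition.

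**Figure D2:**
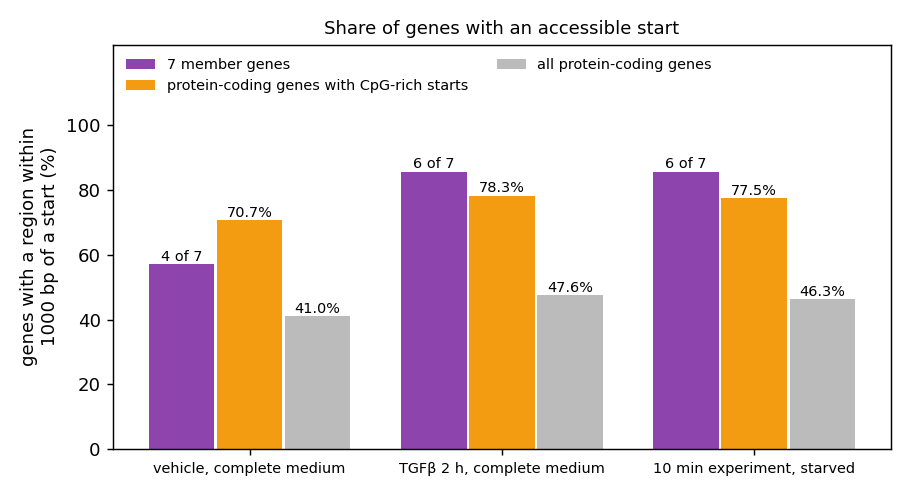
Share of genes (%) with a region within 1000 bp of an annotated start in each of the 3 lists, for the 7 EMT genes, for protein-coding genes with CpG-rich starts and for all protein-coding genes. The 7 genes stand at 4, 6 and 6 of 7, CpG-rich genes between 70.7% and 78.3%, and all genes between 41.0% and 47.6%.

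Over the gene bodies with 20 kb on either side, the 7 genes held 10 regions in the vehicle list, 17 in that of TGFβ and 14 in that of 10 min. All 10 vehicle regions overlapped a TGFβ region. The other 7 TGFβ regions overlapped no vehicle region and are called TGFβ-only: 2 each at Zeb1 and Zeb2, and 1 each at Snai1, Snai2 and Twist2. Thus 5 of 7 genes had at least 1 TGFβ-only region, where 50.2% of all protein-coding genes did, and the same 5 had more TGFβ than vehicle regions, against 48.2%. The windows of the 7 genes were longer, with a median of 86568 bp against 55427.5 bp over all genes. The shares above are not adjusted for this length. Per 100 kb of pooled window, the 7 genes held 2.21 TGFβ regions, against 2.54 over all genes. The median gene of the 7 held 2.88 per 100 kb, against 2.36. In the vehicle and 10 min lists too, the pooled value was lower and the median higher than over all genes. None of the 7 had a vehicle-only region, against 6.93% of all genes. TGFβ-only regions were 41.2% of the TGFβ regions at the 7 genes and 44.4% over the windows of all genes, so their share was near that of the background. The TGFβ list was also the longer list. When it was cut to its 19648 highest-scoring regions, the length of the vehicle list, with a lowest score of 904, only Zeb1 of the 7 genes kept TGFβ-only regions, both of them, against 17.7% of all genes with at least 1. Snai1, Snai2, Zeb2 and Twist2 lost theirs.

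**Figure D3:**
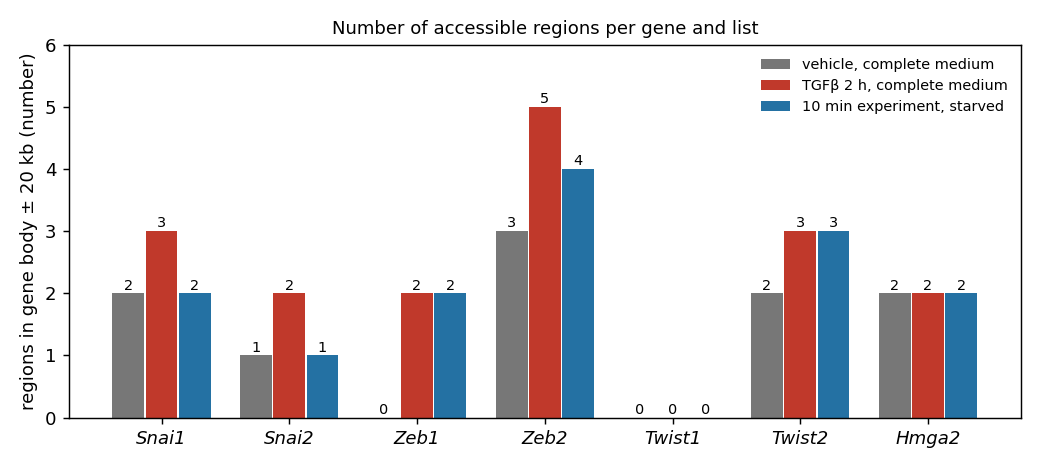
Number of regions in the gene body with 20 kb on either side, for each of the 7 genes and each list. Zeb2 has the most regions (3, 5 and 4), Hmga2 has 2 in every list, Zeb1 has 0 in the vehicle list and 2 in each other list, and Twist1 has 0 throughout. The counts are not adjusted for window length.

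**Figure D4:**
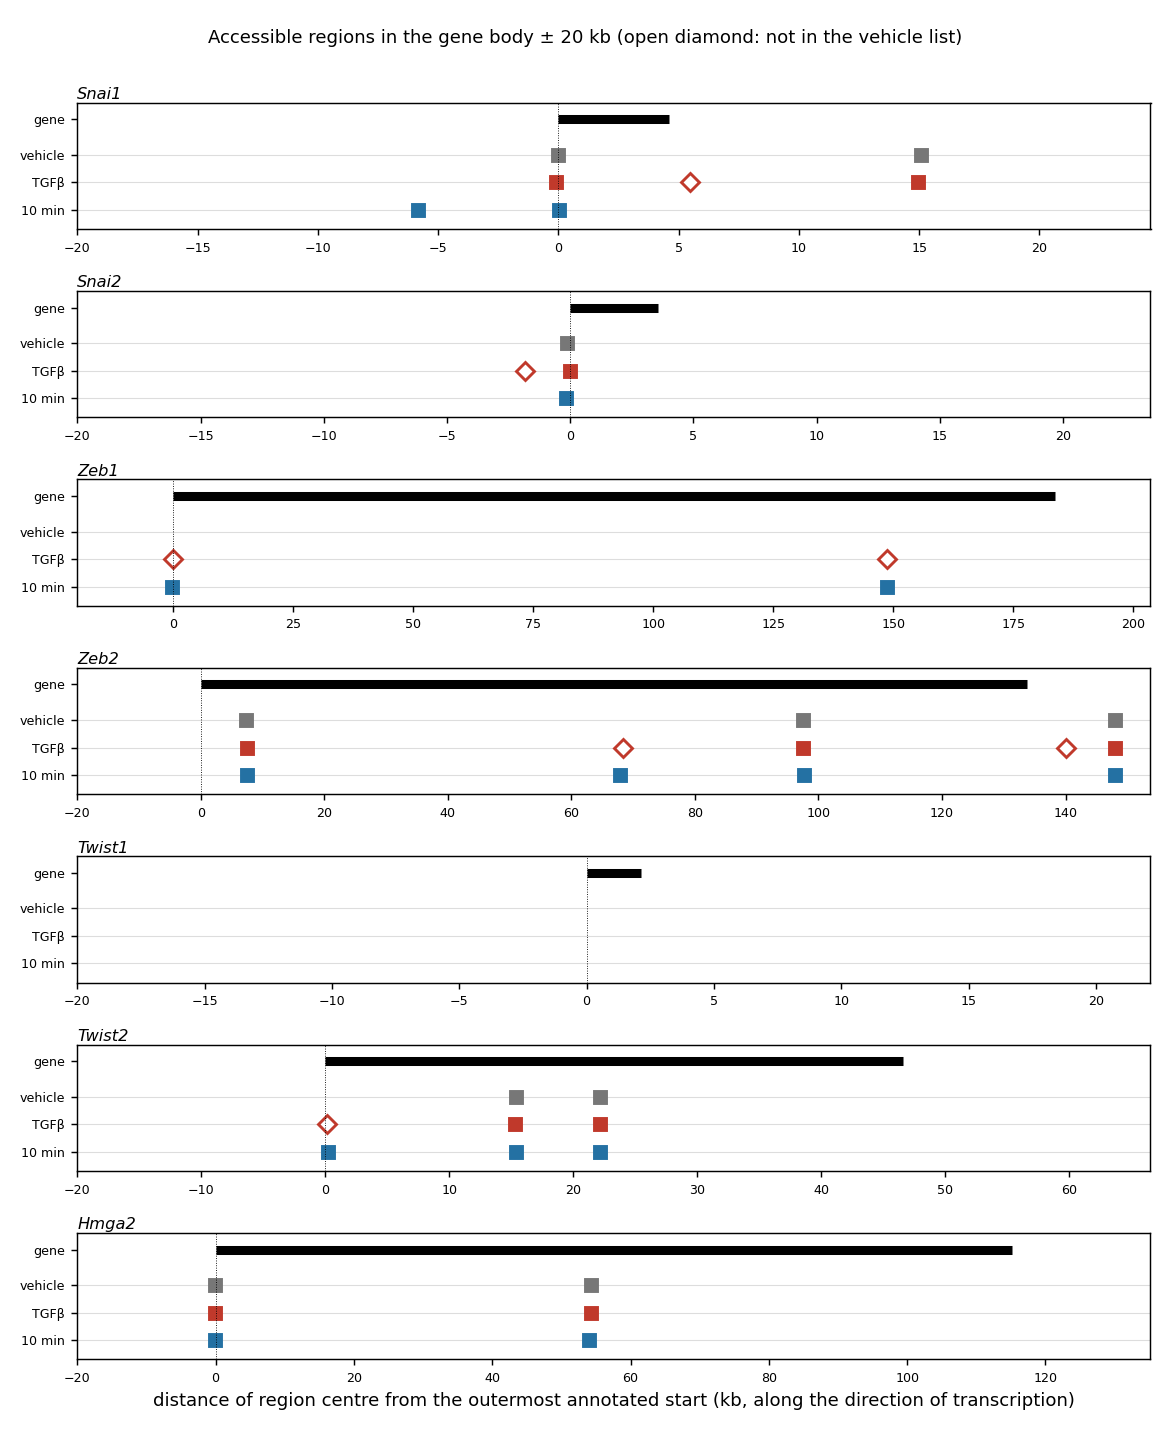
Position of each region's centre (kb from the outermost annotated start along the direction of transcription) in the gene body with 20 kb on either side, in rows for the gene, the vehicle, the TGFβ and the 10 min list. Filled squares are regions and open diamonds are the 7 TGFβ regions that overlap no vehicle region, which lie at Snai1, Snai2, Zeb1 (2), Zeb2 (2) and Twist2.

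Of the SNAIL factors, Snai1 (ENSMUSG00000042821.7, chr2:167363695-167368314, plus strand, mm9) had an open start in every list. The region spanned the upstream sequence and the first exon, and was 417 bp wide in the vehicle list (chr2:167363464-167363880, score 743), 435 bp in that of TGFβ (chr2:167363375-167363809, score 1000) and 673 bp in that of 10 min (chr2:167363370-167364042, score 1000). The TGFβ region was of like width and lay slightly upstream, while that of the 10 min list reached further into the gene and covered both. A TGFβ-only region of 1372 bp (chr2:167368503-167369874, score 818) lay in intergenic sequence 5.49 kb from the start, just past the end of the gene. It was joined from 2 intervals of 508 and 466 bp, and neither the vehicle nor the 10 min list had a region there. A further region 15.1 kb downstream sat at the start of the noncoding gene Gm11476, with 210 bp at the lowest score of 540 in the vehicle list and 522 bp at the cap in the TGFβ list, and was absent from the 10 min list. The 10 min list alone had a narrow region 5.84 kb upstream (chr2:167357777-167357935, 159 bp, score 662), the only one of its 14 that overlapped neither other list.

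Snai2 (ENSMUSG00000022676.6, chr16:14705945-14709488, plus strand), the gene of the SLUG protein, also had an open start in every list, at the score cap in each. The region was 453 bp wide in the vehicle list (chr16:14705570-14706022), 250 bp in that of TGFβ (chr16:14705805-14706054) and 576 bp in that of 10 min (chr16:14705494-14706069). Here the TGFβ region was the narrowest, at 0.552 times the vehicle width, the lowest ratio among the 10 regions of the 7 genes paired 1 to 1 between these lists. A TGFβ-only region of 265 bp (chr16:14703982-14704246, score 681) lay 1831 bp upstream in intergenic sequence and was absent from the 10 min list. No other region was found within 20 kb of Snai2 in any list. The open start sequences of both genes and the TGFβ-only sequence of Snai2 are shown for the E-box CACCTG, the kind that SNAIL and ZEB proteins bind. Capitals mark CACCTG on either strand, found in the 250 bases before the Snai1 start (chr2:167363445-167363694) and at base 28 of the Snai2 region, and not in the 250 bases before the Snai2 start (chr16:14705695-14705944). All are mm9, plus strand, 5′ to 3′.
Snai1 before the start: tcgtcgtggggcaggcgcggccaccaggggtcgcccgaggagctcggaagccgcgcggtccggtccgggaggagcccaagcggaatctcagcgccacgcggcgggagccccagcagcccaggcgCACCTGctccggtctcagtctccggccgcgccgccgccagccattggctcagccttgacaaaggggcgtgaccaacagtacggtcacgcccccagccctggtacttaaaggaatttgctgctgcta
Snai2 before the start: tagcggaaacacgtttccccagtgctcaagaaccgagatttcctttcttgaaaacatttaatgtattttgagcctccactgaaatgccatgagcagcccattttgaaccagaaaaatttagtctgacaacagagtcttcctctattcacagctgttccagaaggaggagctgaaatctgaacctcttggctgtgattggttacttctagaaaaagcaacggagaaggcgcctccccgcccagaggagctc
Snai2 TGFβ-only region: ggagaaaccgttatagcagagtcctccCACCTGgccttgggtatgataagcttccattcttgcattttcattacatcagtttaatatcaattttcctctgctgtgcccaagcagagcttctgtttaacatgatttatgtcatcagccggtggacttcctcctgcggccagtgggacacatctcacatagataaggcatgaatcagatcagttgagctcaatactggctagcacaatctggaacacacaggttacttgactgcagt
Of the 250 bases before the start of all 22350 protein-coding genes, 17.0% held CACCTG on either strand, so a match there was common. Past the printed bases, 1 CACCTG match lay within 200 bp of the centre of the TGFβ region at the Snai2 start.

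Of the ZEB factors, Zeb1 (ENSMUSG00000024238.5, chr18:5591858-5775465, plus strand) was the one gene of the 7 with no vehicle region and with regions in both other lists. The vehicle list had no region in its window of 223608 bp, and the vehicle region nearest to the Zeb1 start lay 177 kb upstream. The TGFβ list had a region of 366 bp at the start (chr18:5591580-5591945), over the upstream sequence and first exon, and one of 507 bp in an intron 137 kb from the nearest annotated start (chr18:5740299-5740805). Both were single intervals at the score cap, and they were the only TGFβ-only regions of the 7 genes that stood at the cap. The 10 min list had both places too, at 806 bp with a score of 786 (chr18:5591228-5592033) and 562 bp with a score of 681 (chr18:5740250-5740811), where 45.6% and 29.1% of that list scored lower. The gene Gm10125, annotated as protein-coding on the opposite strand, starts within 1000 bp of the same region, so the open start cannot be assigned to Zeb1 alone. A window with no vehicle region and a TGFβ region at a TSS was found at Zeb1 among the 7 genes and at 2.43% of all protein-coding genes, a combination chosen after the values were seen. With the TGFβ list cut to the length of the vehicle list, Zeb1 was the only one of the 3 genes without a vehicle region at a TSS to have one, against 3.83% of such genes overall.

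Zeb2 (ENSMUSG00000026872.8, chr2:44839154-44972915, minus strand) had the most regions of the 7 genes, in a long window of 173762 bp, and most of them were in every list. Per 100 kb it held 1.73, 2.88 and 2.30 regions in the vehicle, TGFβ and 10 min lists, fewer than the 4.48, 6.72 and 4.48 of Snai1. None lay at its outermost start. The region counted at a TSS was at inner starts about 6.9 kb into the gene, shared with the noncoding gene Gm13476, and was 648 bp wide in the vehicle list (chr2:44965357-44966004, score 794), 1237 bp in that of TGFβ (chr2:44964771-44966007, score 1000) and 1045 bp in that of 10 min (chr2:44964972-44966016, score 633). The greater width in the TGFβ list came from a second interval of 508 bp further into the gene, since the interval over the starts was 652 bp, nearly that of the vehicle list. An intron region 90.5 kb from the nearest start was 647, 696 and 680 bp wide in the vehicle, TGFβ and 10 min lists, and an intergenic region past the 3′ end, 141 kb from the nearest start, was 323, 399 and 393 bp wide. Both were thus held in every list. Of the 2 TGFβ-only regions, an intron region 61.3 kb from the nearest start (chr2:44903947-44905152, 1206 bp, score 874) was joined from 2 intervals, and that of 350 bp overlapped a region of the 10 min list with a score of 542, barely above the lowest score. The other, of 245 bp past the 3′ end (chr2:44832747-44832991, score 666), was in the TGFβ list alone.

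The 2 regions of Zeb2 outside its starts that every list held each had a match to the AP-1 sequence TGACTCA, read on either strand, and so did the TGFβ-only region past its 3′ end. AP-1 is a dimer of JUN and FOS proteins. The sequences are shown on the minus strand of mm9, 5′ to 3′, with 1 match each in capitals. Printed are 47 bases on either side of it at 141 kb (chr2:44824979-44825079) and at 90.5 kb (chr2:44875216-44875316), and the whole TGFβ-only region (chr2:44832747-44832991). The called interval at 90.5 kb held 2 AP-1 matches in each list, of which 1 is printed.
Zeb2 in every list, 141 kb: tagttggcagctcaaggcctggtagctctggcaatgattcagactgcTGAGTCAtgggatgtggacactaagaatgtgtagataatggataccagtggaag
Zeb2 in every list, 90.5 kb: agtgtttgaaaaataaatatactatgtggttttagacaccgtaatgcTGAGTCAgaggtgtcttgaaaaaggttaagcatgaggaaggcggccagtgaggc
Zeb2 TGFβ-only, past the 3′ end: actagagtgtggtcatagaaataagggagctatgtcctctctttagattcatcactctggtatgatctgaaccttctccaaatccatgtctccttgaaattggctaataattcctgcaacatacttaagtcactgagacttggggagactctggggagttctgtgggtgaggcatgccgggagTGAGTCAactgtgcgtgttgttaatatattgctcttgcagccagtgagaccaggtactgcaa
The TGFβ-only intron region of Zeb2 had 1 match to the AP-1 sequence in its called intervals, and the overlapping 10 min region also had 1.

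The TWIST factors differed from each other. Twist1 (ENSMUSG00000035799.5, chr12:34642536-34644682, plus strand) had no region in its window in any list, as 24.4% of all protein-coding genes did. Its nearest region was 83.5 kb downstream in intergenic sequence, 326 bp wide in the vehicle list (chr12:34725863-34726188, score 566) and 352 bp in the TGFβ list (chr12:34725865-34726216, score 1000). In the 10 min list the nearest lay 119 kb downstream, in an intron of Hdac9. The distance was thus alike in the complete-medium lists, and the start was not listed although it is CpG-rich (0.870 observed to expected).

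Twist2 (ENSMUSG00000007805.3, chr1:93698038-93744605, plus strand) had 2 regions in its intron in every list and a start that was listed in only some. At the start the vehicle list had none, the TGFβ list had 581 bp (chr1:93697915-93698495, score 687) and the 10 min list 1010 bp (chr1:93697717-93698726, score 620). These scores were low in their lists, with 21.8% of TGFβ regions and 17.7% of 10 min regions scoring lower, and the start dropped out of the TGFβ list when it was cut to the vehicle length. The intron region 15.4 kb from the start was 537, 535 and 584 bp wide in the vehicle, TGFβ and 10 min lists, and that at 22.2 kb was 590, 583 and 546 bp wide. Their widths moved by less than 50 bp between lists, and at least 1 of the 3 scores of each stood at the cap. The sequences before the 2 TWIST starts are shown to set an unlisted CpG-rich start beside one listed in part. They are mm9, plus strand, 5′ to 3′, 250 bases before Twist1 (chr12:34642286-34642535) and Twist2 (chr1:93697788-93698037), followed by 47 bases on either side of the AP-1 matches of the Twist2 intron regions at 15.4 kb (chr1:93713374-93713474) and 22.2 kb (chr1:93720171-93720271). Capitals mark the AP-1 match, and in Twist1 the SMAD sequence CAGACA.
Twist1 before the start: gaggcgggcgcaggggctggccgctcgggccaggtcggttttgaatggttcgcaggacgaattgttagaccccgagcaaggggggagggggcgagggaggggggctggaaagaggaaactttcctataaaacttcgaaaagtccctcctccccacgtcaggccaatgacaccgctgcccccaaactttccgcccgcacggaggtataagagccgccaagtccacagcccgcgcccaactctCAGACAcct
Twist2 before the start: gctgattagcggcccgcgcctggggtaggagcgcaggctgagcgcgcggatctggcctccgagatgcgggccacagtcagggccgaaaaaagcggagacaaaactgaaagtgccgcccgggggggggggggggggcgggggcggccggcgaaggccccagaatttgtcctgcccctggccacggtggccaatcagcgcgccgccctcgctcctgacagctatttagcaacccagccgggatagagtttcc
Twist2 intron, 15.4 kb: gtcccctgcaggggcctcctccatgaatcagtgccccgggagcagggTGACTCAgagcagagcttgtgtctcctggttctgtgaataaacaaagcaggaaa
Twist2 intron, 22.2 kb: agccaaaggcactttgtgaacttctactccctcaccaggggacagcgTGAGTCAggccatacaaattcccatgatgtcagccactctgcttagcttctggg
Of the same 250 bases over all protein-coding genes, 15.4% held CAGACA or GTCTAGAC on either strand and 3.86% held TGACTCA.

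Hmga2 (ENSMUSG00000056758.8, chr10:119798331-119913525, minus strand) had the same 2 places in every list and no TGFβ-only region. Its start had the widest region of the 7 genes, with 1064 bp in the vehicle list (chr10:119913018-119914081, score 882), 1661 bp in that of TGFβ (chr10:119912817-119914477, score 942) and 1633 bp in that of 10 min (chr10:119912833-119914465, score 841). In the vehicle list it was joined from 2 intervals of 569 and 419 bp, and in the other lists it was 1 unbroken interval that ran past both ends. An intron region 54.1 kb from the nearest start was at the cap in each list, with 404 bp in the vehicle list, 453 bp in that of TGFβ and 1305 bp in that of 10 min. Greater widths in the TGFβ and 10 min lists were common over all genes. Among vehicle regions of the 7 genes that could be paired 1 to 1 with a region of the other list, the TGFβ region was the wider in 7 of 10 pairs, against 66.1% over all such pairs, with a median ratio of 1.10 against 1.11. The 10 min region was the wider in 8 of 9 pairs, against 82.1%, with a median ratio of 1.27 against 1.30.

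The regions of the 7 genes outside any annotated start were searched for 4 sequences within 200 bp of their centres, on both strands: AP-1 TGACTCA, SMAD CAGACA or GTCTAGAC, the E-box CACCTG and ETS CCGGAAGT. The AP-1, SMAD and E-box sequences can overlap by a shared CA, and no match in the printed sequences did so. AP-1 matches were in 4 of 5 such regions in the vehicle list, 5 of 10 in that of TGFβ and 5 of 8 in that of 10 min, where 44.3%, 41.2% and 39.6% of all regions outside starts had one. SMAD matches were in 0 of 5, 1 of 10 and 2 of 8, against 36.1%, 40.2% and 34.8%. E-box matches were in 1 of 5, 2 of 10 and 3 of 8, against 23.2%, 23.6% and 26.1%, and ETS matches in none. In 2 joined TGFβ-only regions, those of Snai1 and of the Zeb2 intron, the 400 bp searched held 22 and 0 bp of called intervals, so the search was repeated in the called intervals alone, a choice made after the values were seen. The SMAD counts then became 3 of 5, 5 of 10 and 5 of 8, against 35.1%, 38.7% and 38.5% of all regions outside starts, so the low SMAD counts rest on the window around the centre. AP-1 matches were in 4 of 5, 6 of 10 and 5 of 8, against 46.7%, 44.7% and 44.3%, and E-box matches in 1 of 5, 3 of 10 and 3 of 8, against 22.8%, 21.9% and 29.8%. The vehicle regions with an AP-1 match were at Zeb2 (2) and Twist2 (2), so they came from 2 genes and are not independent. A match is a run of letters and says nothing of whether the factor was bound.

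Longer flanks held more regions. Per 100 kb, TGFβ regions ran from 0 (Twist1) to 6.72 (Snai1) with 20 kb on either side. With 250 kb they ran from 0.797 (Twist1) to 6.14 (Snai1), so the 7 genes did not draw apart in density. With 50 kb on either side they held 13 vehicle, 29 TGFβ and 20 10 min regions, with 100 kb 18, 38 and 26, and with 250 kb 50, 104 and 69. With 250 kb, Snai1 had 17, 31 and 28 regions in the vehicle, TGFβ and 10 min lists, Hmga2 12, 23 and 13, and Twist1 1, 4 and 1. The TGFβ count was at least as high as the vehicle count at each of the 7 genes with each flank, beside a TGFβ list that was the longer one over the whole genome. Zeb1 had no vehicle region up to 100 kb, with 5 TGFβ and 3 10 min regions there, and at 250 kb it had 3, 11 and 7. These wider windows hold other genes. No share over all protein-coding genes was computed for the counts of this paragraph, so they cannot be set against the genome.

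**Figure D5:**
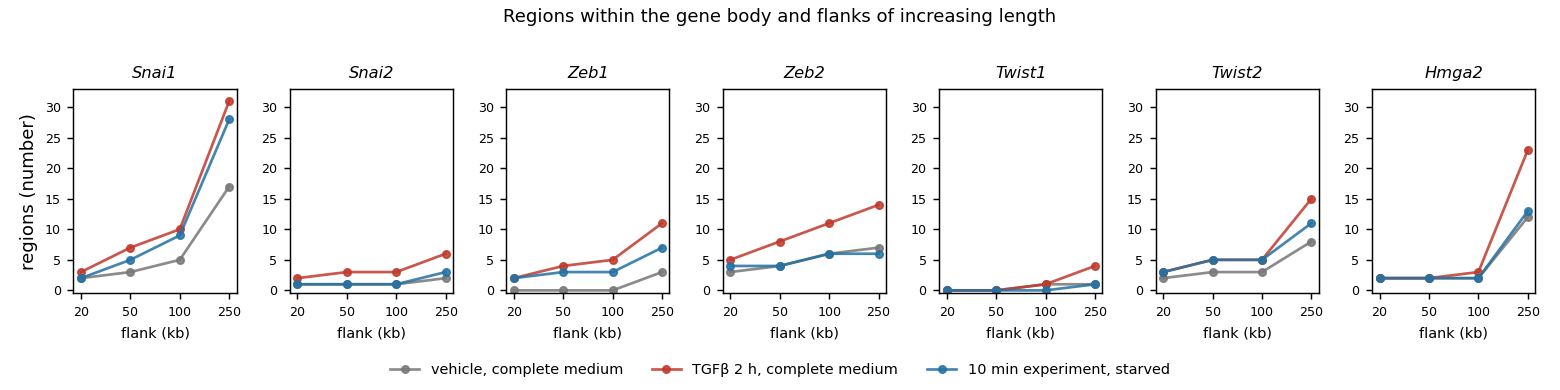
Number of regions in the gene body and flanks of 20, 50, 100 and 250 kb (evenly spaced on the axis, not to scale) for each of the 7 genes in the 3 lists. Zeb1 stays at 0 vehicle regions up to 100 kb, Twist1 has at most 1 region in any list up to 100 kb, and Snai1 has the most at 250 kb (17, 31 and 28).

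Genes that act with or against the 7 were counted the same way, from lists drawn up by known role, beside the 41.0%, 47.6% and 46.3% of all protein-coding genes with a region at a TSS in the vehicle, TGFβ and 10 min lists. Of 14 matched other factors that promote EMT, 6 had a region at a TSS in the vehicle list and 8 in each other list, and the 2 that lacked it in the vehicle list alone were Foxq1 and Sox9. Snai3, Tcf3, Tcf4, Foxc1 and Hmga1 were among those with it in every list, while Foxc2, Gsc, Prrx1, Klf8, Tbx3 and Lef1 had it in none. Of 11 factors that maintain the epithelial state, 6 had one in the vehicle list, 9 in that of TGFβ and 7 in that of 10 min. Those with one in the TGFβ and not the vehicle list were Ovol2 and Foxa1, known for restraining EMT, and Ehf, an epithelial ETS factor. Of the genes without a vehicle region at a TSS, 2 of 8 in the first list and 3 of 5 in the second had one with TGFβ, against 12.3% of all such genes. Of 11 matched corepressors and enzymes that work with SNAIL and ZEB proteins, 9 had one in the vehicle list and 11 in each other list, with Kdm1a, the histone demethylase LSD1, and Jub, which encodes the LIM protein AJUBA, as the 2 additions. Of 10 epithelial genes listed here as targets of repression in EMT, 2 had one in the vehicle list (Ocln and Dsp), 3 in that of TGFβ (Ocln, Cldn4 and Pkp2) and 4 in that of 10 min (Ocln, Pkp2, Cdh1 and Crb3). By the same contrast, the TGFβ list added a region at a TSS at every corepressor gene that lacked one in the vehicle list (Kdm1a and Jub). Among the epithelial genes it added one at Cldn4 and Pkp2. Such additions were thus in all of these lists. Repression of the epithelial genes by the 7 factors was not tested. The window counts that follow are not adjusted for window length. At least 1 TGFβ-only region was in the windows of 9 of 14, 7 of 11, 7 of 11 and 8 of 10 genes of these lists, against 50.2% of all genes, and at least 1 vehicle-only region in those of 2 of 14, 0 of 11, 1 of 11 and 2 of 10, against 6.93%.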

How the data were processed

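Accessible chromatin was measured by ATAC-seq in 4 samples of NMuMG cells, 1 per group. According to the study's methods, the authors processed reads with the ENCODE ATAC-seq pipeline against mm9 and called peaks with MACS2 (version 2.1.2 in the submitters' processing notes). In the study's main experiment they kept peaks with an IDR of at most 0.05 between biological replicates, and similar procedures are stated for the experiments used here. With 1 sample per group in these experiments, what the IDR compared could not be settled. Whether read ends were shifted before peak calling is not given in the sources used here. The deposited files were 3 peak lists whose score column is the scaled IDR, with 1 line per summit, no read counts and no control column. The read depths that the study states were not used, since a list gives no count behind a region, and no interval or floor was computed. The labels name the 10 min list under both 10 min samples, and it was kept as 1 list. No replicate of any group was available here, so the scores are not taken as agreement between biological replicates.

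Lists were refined with Python 3.11.15, numpy 2.4.6 and pysam 0.24.0: intervals under 150 bp were dropped, gaps under 1000 bp were joined, and a region took its highest score. The NCBIM37 (mm9) genome and GENCODE vM1 annotation were used, since every interval lay inside the mm9 chromosomes. A region was at a TSS if it overlapped a start of any annotated transcript ± 1000 bp, and in a window if it overlapped the gene body ± 20 kb. Overlap by at least 1 bp made regions of 2 lists shared. The 7 genes and all gene lists were chosen with earlier results of these data known. All regions at starts of the 7 genes were named. Of the others, those in 1 complete-medium list only at the score cap were named, and the widest per gene and class. Regions named beyond that rule, the pairs of widths, the windows of 250 kb and the counts over all genes with the cut list were added after values were seen. The lists held the symbols Sox4 and Spi1, which gave no single match in the annotation, and Ajuba, the later name of Jub. No test was run, because each condition had 1 list. The scripts were tested on simulated peak lists. Figures were drawn with matplotlib 3.10.9. Alternatives covered the start window, the flank, joining, minimum width, score, list length, the rule for sharing and the background genes. A gene of 1 list, included in its counts, is not reported here by name.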

Additional observations from a re-analysis of the deposited data

How the results depend on the processing

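No paired analysis was possible because the lists carry no replicates. Of 78 alternative values for 9 counts of genes and regions over 13 settings, 61 stayed within 1.5 times the reported count and 17 did not. With flanks of 50 kb the windows held 29 TGFβ regions, 16 of them TGFβ-only, and with 100 kb 18 vehicle, 38 TGFβ and 26 10 min regions, 20 of the TGFβ regions TGFβ-only, as longer windows hold more. With no minimum width, 11 regions were TGFβ-only. With a minimum of 300 bp, 1 region was vehicle-only, at the Snai2 start, where the TGFβ region of 250 bp was dropped, and 1 was vehicle-only when sharing needed a centre inside the other region. With peaks at or above their list's median score, 1 gene (Snai2) had a region at a TSS in the vehicle list and 2 (Snai1 and Snai2) in the 10 min list, the windows held 5 vehicle, 11 TGFβ and 4 10 min regions, and 3 genes had a TGFβ-only region. With the TGFβ list cut to the vehicle length, 2 regions at 1 gene (Zeb1) were TGFβ-only. With the outermost start alone, Zeb2 lost its region at a TSS in each list, leaving 3, 5 and 5 genes. Over all 37252 annotated genes, 27.5%, 32.6% and 31.4% had a region at a TSS in the vehicle, TGFβ and 10 min lists. With motifs searched in the called intervals, an alternative added after seeing the data, SMAD matches were in 3 vehicle, 5 TGFβ and 5 10 min regions outside starts, and the other motif counts stayed within 1.5 times. What replicate lists or read depth would change was not tested.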

Other observations

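Intervals under 150 bp, left out above, lay in the windows of 3 of the 7 genes and only in the TGFβ list: 116 and 140 bp at Snai1, 132 bp at Zeb1 and 101 bp at Hmga2. The vehicle and 10 min lists had none there. The share of all genes with such narrow intervals was not computed, so these counts cannot be set against the genome. The TGFβ list also had the most lines, 87916 against 48339 (vehicle) and 75736 (10 min). Of the 7 TGFβ-only regions, 4 overlapped a region of the 10 min list: both of Zeb1, the intron region of Zeb2 and the start of Twist2. The matching share over all TGFβ-only regions was not computed, so this count is not read as a trait of these genes. The remaining 3, at Snai1, Snai2 and past the 3′ end of Zeb2, were in the TGFβ list alone, with widths of 1372, 265 and 245 bp and none at the score cap.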
